A study of Mus musculus with 13 samples.

Results

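Among the genomic regions where SMAD3 binding was higher after induction of the reprogramming factors, the distal sites outside OCT4 peaks are described here. They were selected on measured values, namely a SMAD3 concentration that the authors' differential table gave as higher with doxycycline (dox) than without it, a center more than 1000 bp from every annotated transcript start, and no overlap with a peak of the merged OCT4 list. This rule left 560 of the 1176 gained sites among the 2080 sites that the table lists. The 13217 tested regions, rebuilt here from the replicate peak lists, include these 2080 sites. Of the remaining gained sites, 483 were promoter-proximal and 133 were distal and overlapped an OCT4 peak. Gained sites made up 8.90% of all tested regions, and 15.2% of the 3694 tested regions that were distal and free of OCT4 peaks. Since the rule used the SMAD3 contrast, the levels in both conditions are given as a description without a test.

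SMAD3 carries signals of TGF-β and activin receptors into the nucleus, where it binds DNA weakly through short CAGAC and GC-rich sequences and is usually found beside other transcription factors. In fibroblasts such partners include AP-1, TEAD, CEBP and NFI proteins. Oct4, Sox2 and Klf4 are DNA-binding reprogramming factors that open and occupy distal elements in cells on the way to pluripotency. All cells were mouse embryonic fibroblasts (MEFs) of the TNG MKOS line, heterozygous for a Nanog-GFP reporter and for a dox-inducible c-Myc, Klf4, Oct4 and Sox2 cassette with mOrange at the Sp3 locus, with a reverse transactivator driven by CAG, on a mixed 129 and CD1 background. Every group was also infected with a retrovirus for Smad3CA, a constitutively active SMAD3, so the cells without dox carried it too and no cells without Smad3CA are analysed here. Cells were taken on day 3 with dox, at 1 µg/ml per the labels (Dox+, SMAD3 n = 3, OCT4 n = 3, input n = 2) or without dox (Dox-, SMAD3 n = 3, input n = 2). The study's methods give a lower dox concentration for reprogramming in general. The labels do not say whether replicates came from separate cultures, and the antibody is labelled for SMAD3 without separating Smad3CA from the cells' own protein. As the tables hold group means only, a change in binding and a change in the share of cells with binding cannot be told apart.

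The replicate libraries were unequal. In the order of replicates 1 to 3, SMAD3 peaks numbered 420, 23981 and 10374 in Dox+ and 1656, 18588 and 4038 in Dox-. Pooled libraries covered the genome 0.599 times for SMAD3 Dox+, 0.455 times for SMAD3 Dox- and 0.490 times for OCT4, as read from the value of 1 fragment in the signal matrices. Because of this depth, absence of a peak in a list means that none was called and not that SMAD3 was absent.

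Genome sequence around the site centers shows what these regions look like. The windows below are the 100 bp on each side of the center, read from the plus strand of GRCm38, and none overlaps an annotated exon. They were taken from the sites with the largest difference, the highest Dox+ level, or a nearest gene on one of the gene lists below. Capitals mark a match on either strand to a word recognised by KLF, SOX, AP-1 or TEAD proteins, and the site in the Tulp4 intron is shown because it ranked second by difference without such a word.
Site near Fignl2 (KLF word), chr15:101081236-101081436: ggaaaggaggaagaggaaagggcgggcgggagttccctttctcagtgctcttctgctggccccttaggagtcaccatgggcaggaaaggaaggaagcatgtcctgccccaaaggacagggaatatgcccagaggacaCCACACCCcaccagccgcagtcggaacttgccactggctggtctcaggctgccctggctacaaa
Site in an intron of Zmynd8 (SOX word), chr2:165824335-165824535: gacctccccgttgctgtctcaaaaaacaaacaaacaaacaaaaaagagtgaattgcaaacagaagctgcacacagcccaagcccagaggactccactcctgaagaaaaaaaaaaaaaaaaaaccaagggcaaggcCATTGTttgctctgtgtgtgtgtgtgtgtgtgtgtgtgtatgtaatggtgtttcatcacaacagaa
Site near Krt2 (SOX word), chr15:101826406-101826606: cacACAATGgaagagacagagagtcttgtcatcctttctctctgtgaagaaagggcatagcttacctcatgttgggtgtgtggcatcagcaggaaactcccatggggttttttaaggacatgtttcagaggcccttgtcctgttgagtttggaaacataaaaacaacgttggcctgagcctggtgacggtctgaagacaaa
Site upstream of Cdkn1a (AP-1 word), chr17:29068974-29069174: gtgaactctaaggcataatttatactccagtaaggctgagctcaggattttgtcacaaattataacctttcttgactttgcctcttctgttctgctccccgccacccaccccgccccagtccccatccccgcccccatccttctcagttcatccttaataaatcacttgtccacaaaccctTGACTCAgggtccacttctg
Site in an intron of Rcc1 (TEAD and AP-1 words), chr4:132349219-132349419: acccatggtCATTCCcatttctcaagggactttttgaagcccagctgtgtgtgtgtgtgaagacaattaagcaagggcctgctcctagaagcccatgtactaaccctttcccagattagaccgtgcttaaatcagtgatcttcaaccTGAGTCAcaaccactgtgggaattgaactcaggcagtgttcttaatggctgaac
Site in an intron of Tulp4 (no such word), chr17:6180056-6180256: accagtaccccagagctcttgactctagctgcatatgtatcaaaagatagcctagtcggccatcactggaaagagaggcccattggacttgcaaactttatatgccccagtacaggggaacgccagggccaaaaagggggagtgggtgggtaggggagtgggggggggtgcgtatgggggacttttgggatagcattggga
The Zmynd8 window was 71.1% repeat-masked in the reference, the Tulp4 window was 100.0% masked, and the Cdkn1a window held no masked base. Over all 560 sites the median window was 10.9% masked, 44 windows (7.86%) were masked over more than 50% of their length, and 216 (38.6%) not at all. The corresponding share above 50% was 5.09% of distal regions not listed and 4.02% of distal lost sites. How far mapping in repeats bears on these sites was not tested.

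The gained sites had low SMAD3 levels without dox. The authors' mean log2 concentration is the log2 of the mean read concentration per site over the replicates of a group. It had a median of 3.59 in Dox+ (range 2.07 to 6.74) and 1.17 in Dox- (range 0.44 to 4.99). Differences between these 2 means, computed here, ranged from 1.02 to 4.46 with a median of 2.13. They were at least 2 in 310 sites (55.4%), at least 3 in 86 (15.4%) and at least 4 in 6. In 157 sites (28.0%) the Dox- mean was 0.44, the lowest value of any listed site and one shared by 276 sites of the table, so the difference of these sites was set by their Dox+ level. Their median Dox+ mean was 3.09, against 3.83 in the other sites. The Dox+ mean covers reads over the whole site and was higher in wider sites (Spearman's rho 0.767 across 560 sites of the same libraries). The difference showed little relation to width (rho -0.0648). Sites were 212 to 5954 bp wide with a median of 988 bp.

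The Dox+ peaks at these sites came mainly from 2 of the 3 libraries. Replicate 2 had a peak at all 560 sites, replicate 3 at 548 (97.9%) and replicate 1 at 16 (2.86%), while among the Dox- lists replicate 2 had a peak at 71 sites (12.7%), replicate 3 at 2 and replicate 1 at 1. Distal regions not listed had a peak in Dox+ replicates 1, 2 and 3 at 20, 2481 and 1232 of 2611 regions and in Dox- replicate 2 at 2246 (86.0%), so the share in Dox+ replicate 2 was near that background. The share of sites in a list was on average 66.9% ± 55.5 (SD, n = 3) for the Dox+ libraries and 4.40% ± 7.17 (SD, n = 3) for the Dox- libraries, a difference of 62.5 percentage points that became 94.5 points without Dox+ replicate 1. These libraries chose the sites, so the direction was fixed by the rule and supports nothing further. A peak in 2 Dox+ lists and no Dox- list was the pattern of 482 sites (86.1%), and 58 sites were in 2 Dox+ lists and 1 Dox- list. Fold enrichment over input was modest in each library, with medians of 2.42 (16 sites), 2.29 (560) and 2.38 (548) in Dox+ replicates 1, 2 and 3. The merged Dox+ list had a peak at 468 sites (83.6%) with a median fold of 2.29 and a median −log10 q of 1.74, and the merged Dox- list at 25 sites (4.46%). The 71 sites with a peak in a Dox- list were wide, with a median of 1926 bp, and had a median difference of 1.59, against 875 bp and 2.23 in the 489 sites that were in 2 or 3 Dox+ lists but in none of the Dox- lists.

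**Figure D1:**
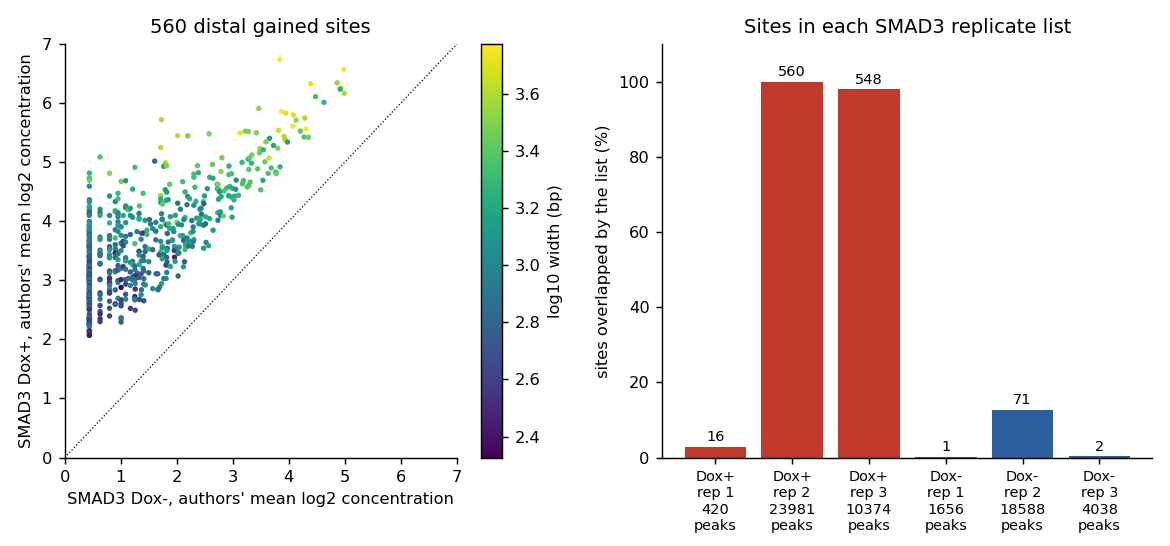
Left, authors' mean log2 SMAD3 concentration in Dox- (x) and Dox+ (y) of the 560 distal gained sites, 1 point per site, coloured by log10 width, with equality dotted. Right, bars give the percentage of these sites overlapped by each SMAD3 replicate list, with the number of sites above each bar. The column of points at 0.44 holds 157 sites, and Dox+ peaks came mainly from replicates 2 and 3.

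The largest differences lay in and around genes of varied function, and none of the top 10 had a peak in any Dox- list. The site at chr15:101080131-101082542, 2769 bp from the start of Fignl2, had authors' means of 5.09 in Dox+ and 0.63 in Dox-. Its fold over input was 2.33 in Dox+ replicate 2 and 2.90 in replicate 3, with no peak in replicate 1. The next, at chr17:6179216-6181096 in an intron of Tulp4, had means of 4.82 and 0.44 and folds of 2.41 and 2.63 in the same libraries. Sites in an intron of 2900026A02Rik (chr5:113214926-113217017, difference 4.29), near Rmnd5b (chr11:51638037-51640878, difference 4.25) and near Osbpl11 (chr16:33178232-33179347, difference 4.15) followed. Each of these had a Dox- mean of 0.44, and their folds in Dox+ replicates 2 and 3 were 2.02 and 2.93, 2.17 and 1.84, and 1.77 and 1.91, so the largest differences in counts did not go with the largest folds.

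Slurp1 and Krt2, both genes of stratified epithelium, were next to sites of the top 10. At chr15:74727473-74730677, 1041 bp from the start of Slurp1, which encodes a secreted protein of keratinocytes, the means were 4.81 in Dox+ and 0.80 in Dox-, with folds of 2.33 and 2.61 in Dox+ replicates 2 and 3. At chr15:101826200-101826813, 8337 bp from the start of the epidermal keratin gene Krt2, the means were 4.25 and 0.44, and this site was in all 3 Dox+ lists, with folds of 2.60, 2.92 and 3.10. It was the only one of the top 10 with a peak in Dox+ replicate 1. The other sites of the top 10 were in an intron of Zmynd8, a reader of histone marks (chr2:165822468-165826402, means 5.72 and 1.73), in an intron of 4732471J01Rik 20.9 kb from the chemokine gene Cxcl17 (chr7:25433150-25434370, 4.37 and 0.44) and in an intron of Dlgap4 (chr2:156729637-156730966, 4.33 and 0.44).

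The highest Dox+ levels belonged to wide sites that also carried SMAD3 without dox. A site of 5954 bp at chr1:86342401-86348354, in the gene of the nucleolar protein nucleolin (Ncl), had means of 6.74 in Dox+ and 3.84 in Dox-. The sites near Fgf18 (chr11:33145918-33151789, 6.57 and 4.98), in Rcc1 (chr4:132347583-132351055, 6.34 and 4.86), in Anxa2 (chr9:69453255-69458597, 6.33 and 4.39) and in Tbc1d8 (chr1:39372339-39377095, 6.25 and 4.93) followed. Each of these 5 sites had a peak in Dox- replicate 2, with folds of 2.02 to 4.31, and in Dox+ replicates 2 and 3, with folds of 2.15 to 2.68. At the Anxa2 site the fold in Dox- replicate 2 (4.31) was above those in Dox+ replicates 2 and 3 (2.15 and 2.30), and at the Fgf18 site likewise (3.32 against 2.68 and 2.37), so the peak caller's fold of the strongest overlapping peak did not follow the counts over the site there.

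Sites close to the limits of the rule had a wide range of differences. The nearest sites inside the distance limit lay 1005 bp (near Kdm6bos, beside Kdm6b), 1007 bp (Inpp5k) and 1018 bp (Mir3109, within Anxa2) from a transcript start, with differences of 2.85, 2.01 and 1.94. The nearest gained sites outside it lay 987 bp (Ankrd35), 966 bp (Gm26953) and 944 bp (Otud7a) away, with differences of 2.72, 4.37 and 1.41. The smallest differences among the distal sites, near Paip2, Dpf1 and Rps16, were 1.02 to 1.03, close to the authors' minimum of 1. The distal gained sites that shared the fewest bases with an OCT4 peak, 116, 140 and 147 bp, had differences of 3.04, 2.59 and 1.5.

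To ask which factors' words lie at these sites, the central windows were compared with those of 2 other distal classes free of merged OCT4 peaks, namely 523 lost sites and 2611 tested regions not listed in either direction. A set of 15 factor words was counted on both strands, and the 30 comparisons were tested over sites with two-sided Fisher's exact tests and Benjamini-Hochberg adjustment. The words were TGAGTCA for AP-1, TGACGTCA for CRE, CAGAC for the SMAD half-site, GTCTAGAC for the SMAD palindrome, GGCGC or GGCCG for the GC-rich SMAD site, GGGCGTGG or GGGTGTGG for KLF, ATGCAAAT for the octamer, CATTGT for SOX, CACGTG for the MYC E-box, CATTCC for TEAD, TGTGGT for RUNX, TTGCNCAA for CEBP, CCGGAA for ETS, TTGGCA for the NFI half-site and AGGTGGC or AGGGGGC for the CTCF core. RUNX and KLF words share letters, and 14 of the 34 gained sites with a KLF word also had a RUNX word. In the same windows of all 13217 tested regions, most of them at promoters, the SMAD half-site was found in 35.7%, the GC-rich SMAD site in 59.5%, TEAD in 9.49%, NFI in 7.90%, KLF in 5.77%, SOX in 5.72%, AP-1 in 4.48%, CEBP in 1.90% and the octamer in 0.643%. A match is a stretch of letters and not evidence of binding, and sites are not replicates, so these p-values describe the pooled libraries.

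Gained sites carried CEBP, NFI and TEAD words less often than lost sites. The CEBP word, bound by factors of fibroblast and adipocyte differentiation, was in 17 of 560 gained sites (3.04%) and 49 of 523 lost sites (9.37%), an odds ratio of 0.309 (adjusted p = 0.000175, Fisher's exact test). The NFI half-site was in 8.57% of gained sites but 17.6% of those lost (odds ratio 0.441, adjusted p = 0.000175, Fisher's exact test). The TEAD word, recognised by the DNA-binding partners of YAP and TAZ, was in 11.1% and 19.5% (odds ratio 0.516, adjusted p = 0.00127, Fisher's exact test). The AP-1 word, of the same group of fibroblast factors, was in 8.21% of gained and 9.94% of lost sites and did not pass (odds ratio 0.812, adjusted p = 0.602, Fisher's exact test). The KLF word went the other way, in 34 gained sites (6.07%) and 13 lost sites (2.49%), with an odds ratio of 2.48 (adjusted p = 0.0209, Fisher's exact test). With stratification over 10 classes of GC content, the pooled KLF odds ratio was 2.14 with an adjusted p of 0.0784 (Mantel-Haenszel test).

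Against distal regions not listed, the SOX word was the only one that passed with a higher share in gained sites. It was in 74 gained sites (13.2%, 95% interval 10.5 to 16.3) and 232 regions not listed (8.89%, 7.82 to 10.0), an odds ratio of 1.57 (adjusted p = 0.0166, Fisher's exact test). Lost sites had it in 9.37% (adjusted p = 0.145 against gained sites, Fisher's exact test), and gained sites under an OCT4 peak in 26 of 133 (19.5%, 13.2 to 27.3). The TEAD word (11.1% against 16.0%, odds ratio 0.659, adjusted p = 0.0166), the GC-rich SMAD site (17.5% against 22.9%, odds ratio 0.715, adjusted p = 0.0209) and the NFI half-site (8.57% against 12.2%, odds ratio 0.679, adjusted p = 0.0499) were found less often in gained sites by Fisher's exact test. With stratification by GC content the GC-rich SMAD site no longer passed (odds ratio 0.784, adjusted p = 0.163, exact test within 10 classes). The SMAD half-site, the sequence that SMAD3 itself contacts, was in 38.4% of gained sites, 41.9% of regions not listed (adjusted p = 0.301) and 40.7% of lost sites (adjusted p = 0.682, Fisher's exact tests). The octamer bound by Oct4 was in 5 gained sites (0.893%) and 1.03% of regions not listed (adjusted p = 1.00, Fisher's exact test).

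Regions not listed were often supported by Dox- lists, so a further comparison, added after these results were seen, kept only the 1122 of them that were in at least 2 Dox+ lists. The SOX difference was then 13.2% against 8.29% (odds ratio 1.69, adjusted p = 0.0109, Fisher's exact test) and the GC-rich SMAD site 17.5% against 26.4% (odds ratio 0.594, adjusted p = 0.000417). The differences in TEAD (11.1% against 11.9%, adjusted p = 0.792) and NFI (8.57% against 9.54%, adjusted p = 0.735) no longer passed Fisher's exact test. The ETS word, in 3.04% of gained sites and 6.42% of these regions, passed in this comparison (odds ratio 0.467, adjusted p = 0.0181, Fisher's exact test) but not against all regions not listed.

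**Figure D2:**
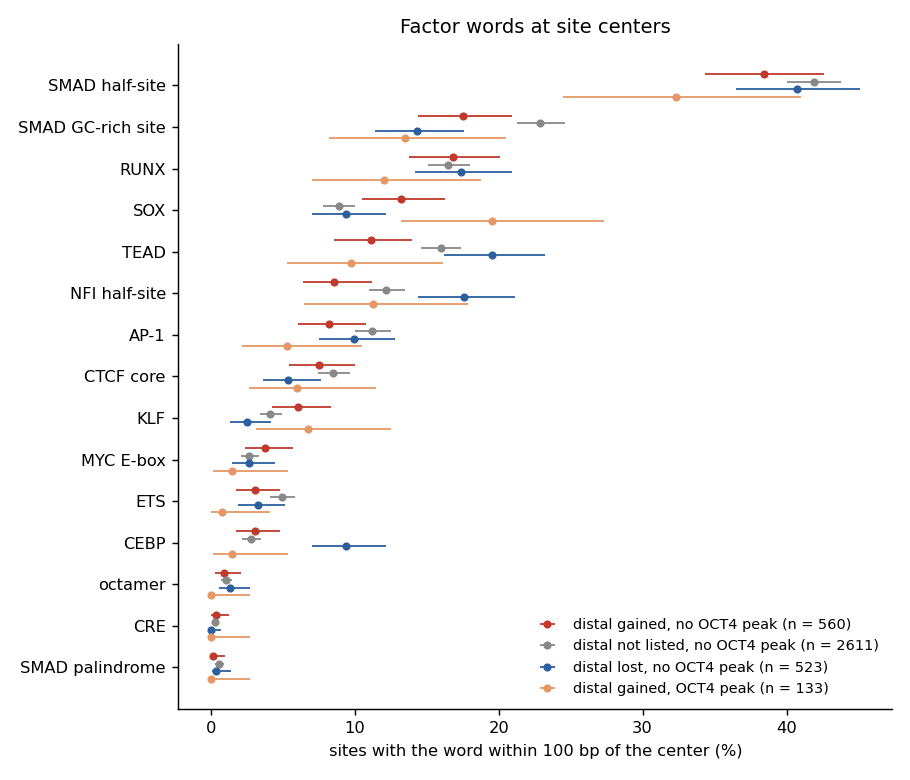
Percentage of sites (x) with each factor word within 100 bp of the center (y, 15 words) in 4 classes of distal sites, with points as shares and bars as exact 95% binomial intervals. TEAD, NFI and CEBP words were most frequent in lost sites, at 19.5%, 17.6% and 9.37%, and the SOX word in gained sites with an OCT4 peak, at 19.5%.

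Within the gained sites, the SOX word was at 74 centers and at 44 of the flanks 500 to 600 bp away (13.2% against 7.86%, unadjusted p = 0.00545, adjusted p = 0.0817, exact McNemar test over 15 words), and the AP-1 word at 46 centers and 27 flanks (8.21% against 4.82%, unadjusted p = 0.0319, adjusted p = 0.239). None of the 15 words passed after adjustment, and these were the 2 with an unadjusted p up to 0.05. With windows of 250 bp on each side both passed, SOX at 28.2% of centers and 20.7% of flanks and AP-1 at 16.1% and 9.64% (adjusted p = 0.0260 each, exact McNemar test). The flanks were set by distance from the center and not by the edge of the site. Sites had a median width of 988 bp and reached 5954 bp, so flanks at 500 to 600 bp lay inside the wider sites. This held for all 96 sites wider than 2000 bp, among others. There the comparison cannot separate a site from its surroundings, so nothing is drawn from the words that did not pass. Level did not separate the carriers, since sites with a SOX word had a median difference of 2.09 and those without 2.13. Sites with a KLF word were narrower than those without, with a median width of 524 against 1004 bp, and had median differences of 2.29 and 2.11. SOX and TEAD words were together in 12 sites and SOX and KLF words in 3.

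The words were also counted in groups, as a description. A TEAD, CEBP, NFI or AP-1 word was in 154 gained sites (27.5%), 35.6% of regions not listed and 46.3% of lost sites. A SOX, KLF, octamer or MYC E-box word, those of the induced factors, was in 124 gained sites (22.1%), 16.2% of regions not listed and 15.5% of lost sites. The members of a group did not all move together. The CEBP word was in 3.04% of gained sites and 2.76% of regions not listed (odds ratio 1.13), and the octamer in 0.893% of gained and 1.34% of lost sites. Against the 1122 regions in at least 2 Dox+ lists, the odds ratios of TEAD (0.929), NFI (0.894), AP-1 (1.19) and CEBP (1.65) did not pass. Gained sites that overlapped an OCT4 peak had these groups in 25.6% and 26.3%. In 320 gained sites (57.1%) no word of either group was found.

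OCT4 at or near these sites was read in several ways, which gave different shares of sites. OCT4 peaks of the merged list lay within 10 kb of 22 sites (3.93%), against 51 of 2611 distal regions not listed (1.95%, odds ratio 2.08, adjusted p = 0.0135, Fisher's exact test) and 5 of 523 lost sites (0.956%, odds ratio 3.94, adjusted p = 0.00363). Of those 22, 8 were within 2 kb, and without the sites within 2 kb the odds ratio against regions not listed was 1.42 (adjusted p = 0.375, Fisher's exact test). Within 50 kb the shares were 10.4%, 9.12% and 7.07%, and neither comparison passed. The median distance to an OCT4 peak was 383 kb in gained sites and 441 kb in regions not listed. The rule used this merged list and excluded overlap in every class. These p-values therefore describe the chosen sites and are no independent support for OCT4 nearby.

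A few sites without a merged OCT4 peak had one in a single replicate list. This held for 9 gained sites (1.61%) and 4 regions not listed (0.153%), an odds ratio of 9.98 (adjusted p = 0.000344, Fisher's exact test). OCT4 replicate 1 held 7 of these peaks and replicate 2 the other 2, and without replicate 1 the odds ratio was 7.79 with an adjusted p of 0.118. The 9 sites, named because they are few, were nearest to Mei4, Tgm3, Magi2, Arntl, Pde4d, Lrch1, Shld1, Mrps14 and Ephb3. The merged list, which the rule used, was made from the same OCT4 libraries, so this test is no independent support either.

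OCT4 was also read from counts over sites instead of peaks. The authors' table that sets OCT4 against SMAD3 in Dox+ cells listed 109 of the 560 sites (19.5%, 95% interval 16.3 to 23.0) with the higher mean for OCT4, at a median log2 concentration of 4.23 for OCT4 and 2.55 for SMAD3. The same held for 44 of 2611 regions not listed (1.69%) and for 43 of the 1122 in at least 2 Dox+ lists (3.83%), while no lost site was so listed (0 of 523, where 3 counts would be 0.574%). Lost sites had a peak in Dox+ SMAD3 replicates 1, 2 and 3 at 0, 288 and 51 of 523, and in no OCT4 replicate list. Their absence from a comparison of Dox+ libraries could thus follow from how they were chosen, and nothing is drawn from it. Gained sites that overlapped an OCT4 peak were listed so in 128 of 133. SMAD3 had the higher mean in 14 gained sites (2.5%), among them the wide sites in Ncl (5.88 against 4.67 for OCT4) and Rcc1 (5.49 against 4.02), and 437 sites were not in that table. The site near Hmga2, described below, had 5.26 for OCT4 and 3.07 for SMAD3. SMAD3 means given here differ from the Dox+ means of the dox comparison, 3.91 at the Hmga2 site and 6.74 at Ncl. Levels should not be read across the 2 comparisons. A higher mean for OCT4 than for SMAD3 sets 2 antibodies against each other and does not by itself show OCT4 above input. OCT4 without dox was not among the samples, so these sites cannot be called bound by OCT4 from this measure. These counts are given without a test, since the SMAD3 means come from the Dox+ libraries that chose the sites, and the inputs behind both antibodies were those of Dox+ cells.

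**Figure D3:**
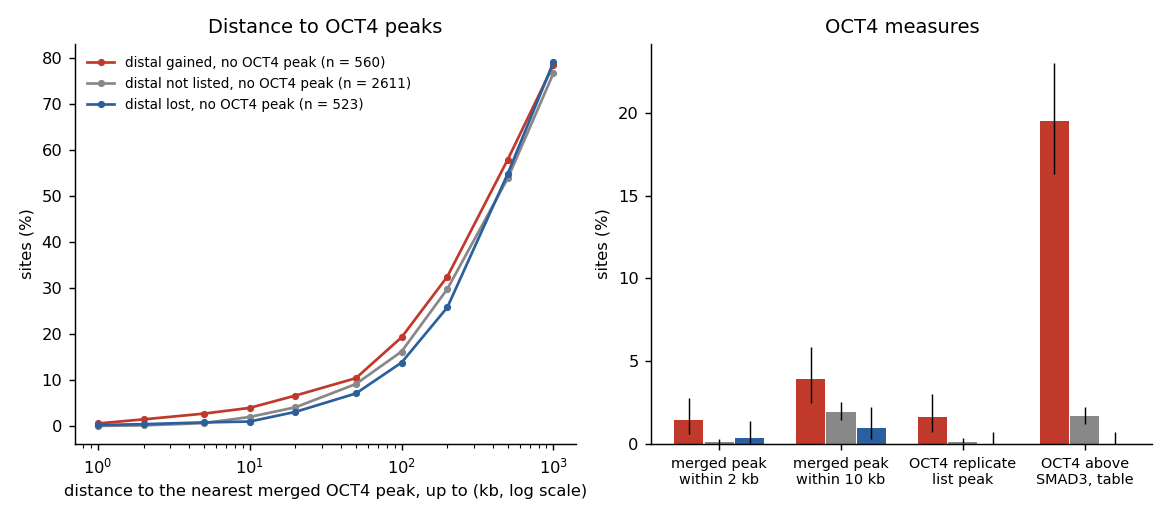
Left, percentage of sites (y) within a given distance of the nearest merged OCT4 peak (x, kb, log scale) in 3 classes of distal sites without an overlapping OCT4 peak. Right, percentage of sites meeting each OCT4 measure, with exact 95% binomial intervals; the bar of 19.5% marks gained sites for which the Dox+ table gave a higher mean for OCT4 than for SMAD3.

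Coverage matrices centered on OCT4 peaks reached 8 of the sites, and for 3 of them more than 95% of the site. Values are pooled coverage minus input, each scaled to a mean of 1. At chr10:4243482-4244239, 22.5 kb from Akap12, a kinase anchoring protein, and 941 bp from an OCT4 peak, mean coverage over the site was 12.1 for SMAD3 Dox+, -1.54 for SMAD3 Dox- and 4.19 for OCT4, while at the center of the OCT4 peak it was 18.4, -3.71 and 46.3. At chr11:4465933-4466685 near Mtmr3, 904 bp from the peak, the site had 7.93, -1.14 and 3.16, and the OCT4 center 5.08, -3.46 and 17.4. At chr11:5263129-5263530, 1771 bp from the start of Kremen1, the site had 13.2, -0.841 and 3.63, and the OCT4 center 18.2, 5.86 and 17.0. Over all 8 sites the mean SMAD3 Dox+ coverage of the part seen was 2.36 to 13.2 and that of SMAD3 Dox- -1.69 to 1.86. SMAD3 Dox+ was thus higher over the site than at the OCT4 peak center near Mtmr3 and lower near Akap12 and Kremen1, in pooled libraries without replicate error. That OCT4 was lower over the site followed from the rule.

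**Figure D4:**
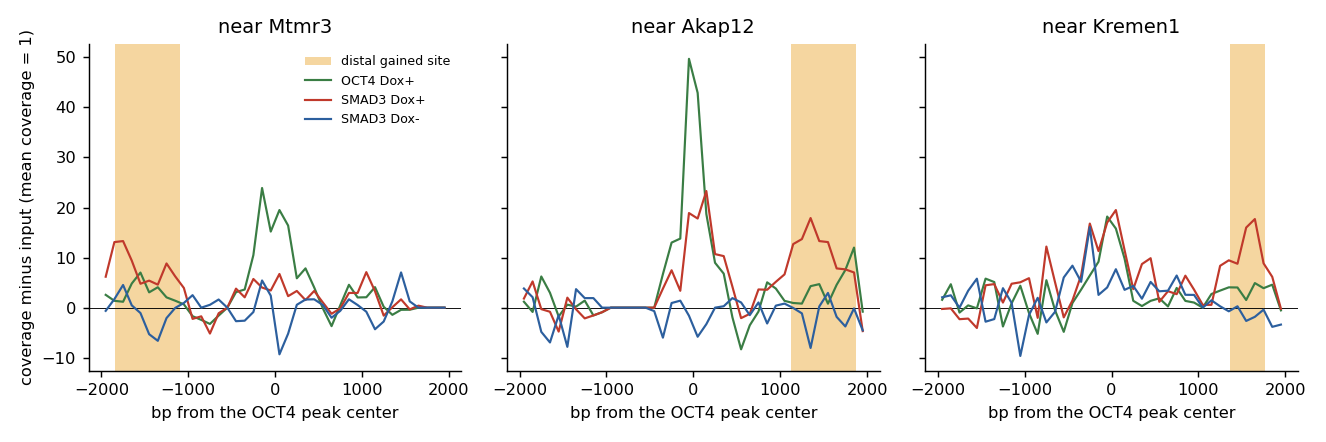
Input-subtracted coverage (y, mean coverage = 1, averages of 100 bp) against distance from the OCT4 peak center (x, bp) for OCT4 Dox+, SMAD3 Dox+ and SMAD3 Dox- at the 3 loci whose distal gained site (shaded) was covered. OCT4 peaks at 0, and within the shaded site SMAD3 Dox+ averages 7.93 (Mtmr3), 12.1 (Akap12) and 13.2 (Kremen1).

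Gained sites were fewer in CpG-rich sequence than distal regions not listed. Of the 560 sites, 218 (38.9%) had their center in an intron, 66 (11.8%, against 9.92% of regions not listed and 5.16% of lost sites) in an exon and 276 (49.3%) between genes. The intronic share was 37.7% in regions not listed (odds ratio 1.05, adjusted p = 0.598, Fisher's exact test) and 44.2% in lost sites (odds ratio 0.806, adjusted p = 0.118). Against the 1122 regions in at least 2 Dox+ lists, of which 29.6% were intronic, the odds ratio was 1.52 and passed (adjusted p = 0.000491, Fisher's exact test). CpG-rich centers, with at least 50% GC and an observed to expected CpG ratio of at least 0.6, were fewer in gained sites, 23 (4.11%) against 230 of the regions not listed (8.81%, odds ratio 0.452, adjusted p = 0.000344, Fisher's exact test), whereas against lost sites (2.87%) the odds ratio was 1.43 (adjusted p = 0.376, Fisher's exact test). Among the 1122 regions in at least 2 Dox+ lists 13.1% were CpG-rich, and the odds ratio was 0.289 (adjusted p = 7.27e-09, Fisher's exact test). Median GC was 49.8% in both gained sites and regions not listed, and 47.8% in lost sites.

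The median distance to a transcript start, a measure the rule had limited to more than 1000 bp in all classes, was 6460 bp in gained sites, 7176 bp in regions not listed and 12418 bp in lost sites. Starts lay within 5 kb of 235 gained sites (42.0%), 37.5% of regions not listed and 27.7% of lost sites. More than 50 kb away were 25 gained sites (4.46%), 7.55% of regions not listed and 83 lost sites (15.9%). Gained sites with an OCT4 peak were farther out, with 29 of 133 (21.8%) within 5 kb and 19 (14.3%) beyond 50 kb. The sites within 5 kb of a start had a median Dox- mean of 1.71 and a median difference of 1.92, and those at 5 to 50 kb 0.95 and 2.25. A promoter-proximal gained site lay within 50 kb of 63 gained sites (11.2%), of 161 regions not listed (6.17%) and of 15 lost sites (2.87%), and a promoter-proximal lost site within 50 kb of 22 (3.93%), 128 (4.90%) and 36 (6.88%). These shares are given as counts without a test.

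The genes nearest to the sites were spread widely. Within 100 kb the nearest protein-coding starts of 521 sites belonged to 485 genes, of which 33 had at least 2 sites and only Cd9 (4 sites) and Tob1 (3 sites) more. The 336 annotated genes of 11 lists were counted, covering TGF-β signaling, extracellular matrix, the cytoskeleton, fibroblast and epithelial identity, pluripotency, the cell cycle, Wnt signaling and chromatin. A nearest gene does not have to be the gene that a site acts on. In all, 17 gained sites (3.04%) had a listed gene as the nearest, compared with 161 regions not listed (6.17%) and 42 lost sites (8.03%).

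None of the gained sites was nearest to a TGF-β feedback gene (0 of 17 genes), to a TGF-β ligand, receptor or SMAD gene (0 of 26), to an AP-1 family gene (0 of 15) or to a pluripotency gene (0 of 40). Each of these counts of 0 allows up to 0.536% of the 560 sites, the share that 3 sites would give. Regions not listed had 0.383%, 0.268%, 0.268% and 0.115% for these 4 lists, all below that limit, so no difference from them was detectable. Lost sites included 5 nearest to the feedback genes Fst, Pmepa1, Ski, Smad6 and Smad7, and 7 nearest to Acvr1b, Bmp1, Smad3 and Tgfbr3. Of the extracellular matrix genes, 2 of 49 had a gained site and 11 a lost site (0.357% of gained sites, 1.49% of regions not listed and 2.10% of lost sites), and of the mesenchymal transcription factors 1 of 28 had a gained and 6 a lost site (0.179%, 0.651% and 1.53%). Gained sites with an OCT4 peak included 2 nearest to pluripotency genes.

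The matrix sites were in an intron of Col4a1, a basement membrane collagen (chr8:11227262-11228452, means 3.22 in Dox+ and 0.44 in Dox-, folds 2.48 and 3.13 in Dox+ replicates 2 and 3), and near the laminin gene Lama5 (chr2:180234624-180236070, means 2.94 and 1.73, folds 1.94 and 2.34). Neither had a peak in a Dox- list. The mesenchymal factor was Tcf4, with an intronic site at 3.25 and 0.44.

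Actin and adhesion genes had 4 gained sites (0.714%, against 1.23% of regions not listed and 1.15% of lost sites). Those with the largest differences were in an intron of Palld (chr8:61574616-61575434, 3.15 in Dox+ and 0.90 in Dox-, folds 3.67 and 2.48), which encodes the actin-bundling palladin, and near the myosin gene Myh9 (chr15:77857613-77858250, 2.37 and 0.44, folds 2.17 and 2.55). Palld, Myh9 and Tpm1 were each also the gene nearest to a distal lost site, so gained and lost sites lay beside the same 3 genes.

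Epithelial genes had 2 gained sites among 29 genes (0.357%, against 4 regions not listed, 0.153%) and no lost site. A count of 3 would be 0.536% of gained sites and 0.574% of lost sites, so no difference between the classes was detectable. One lay 9175 bp from Krt8, a keratin of simple epithelia (chr15:101994494-101996121, means 3.93 and 0.44, folds 2.00 and 3.10 in Dox+ replicates 2 and 3), and the other in an intron of St14, an epithelial membrane protease (chr9:31130324-31130905, 2.61 and 0.44). The Krt8 site was 168 kb from the Krt2 site above on the same chromosome.

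Cell cycle genes had 3 gained sites (0.536%, against 0.421% of regions not listed), 2 of them at Cdkn1a, which encodes the inhibitor p21. One was 21.9 kb from its start in an intron of Trp53cor1 (chr17:29068512-29069636), with means of 4.69 and 1.09, folds of 2.03 and 2.80 in Dox+ replicates 2 and 3 and an OCT4 peak 3.22 kb away, and the other in an exon of Cdkn1a (chr17:29099600-29100981) with means of 4.43 and 2.93 and folds of 2.85 and 3.10. Neither had a peak in a Dox- list. The site near the cyclin gene Ccnd1 (chr7:144928705-144931372) had means of 5.16 and 3.48 and folds of 2.33 and 2.15.

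Wnt genes had 2 gained sites (0.357%, against 0.536% of regions not listed), both nearest to Kremen1, whose product takes up Wnt co-receptors. The one 1771 bp from its start had means of 3.16 and 0.44 with folds of 3.89 and 1.94 in Dox+ replicates 2 and 3, and the other lay in an exon of the neighbouring Znrf3 (chr11:5278965-5279372, 2.60 and 0.44). Chromatin genes had 3 (0.536%, against 0.651% of regions not listed), among them one near the architectural protein gene Hmga2 (chr10:120521771-120523258, 3.91 and 0.44, folds 2.35 and 2.08) and one at the histone demethylase gene Kdm6b (chr11:69402343-69402694, 3.29 and 0.44, folds 1.21 and 2.85). Neither of these had a peak in a Dox- list.

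**Figure D5:**
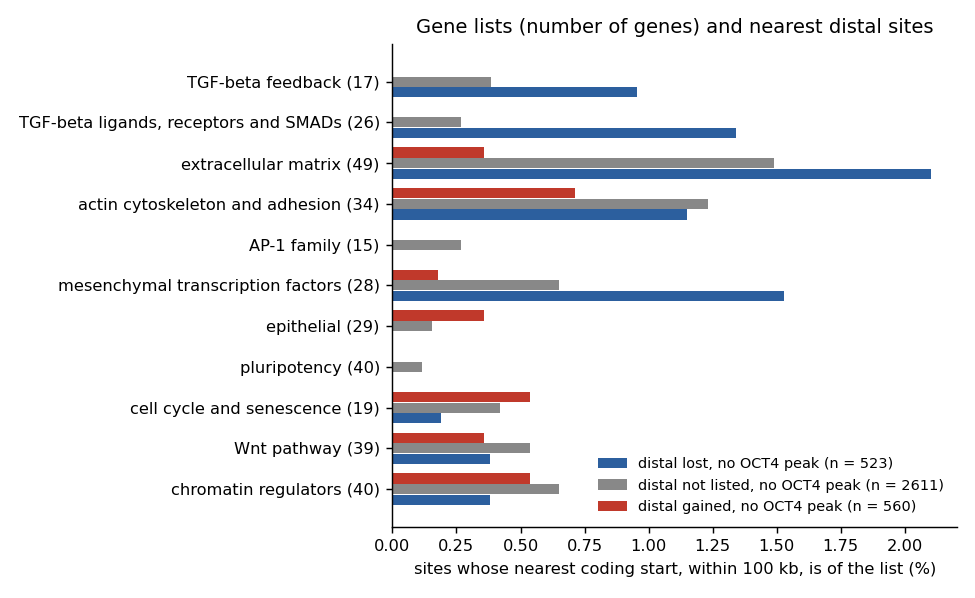
Percentage of distal sites (x) whose nearest protein-coding start, within 100 kb, belongs to each of 11 gene lists (y, number of genes in parentheses), for gained, not listed and lost sites without an OCT4 peak. Gained sites were absent from 4 lists, and lost sites were highest for extracellular matrix genes at 2.10%.

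Sites rarely clustered. With gaps of up to 50 kb, 2 runs of at least 3 sites were found. At chr6:125425263-125493595, 4 sites within 68.3 kb were all nearest to Cd9, a tetraspanin of the cell surface, with differences of 1.64 to 2.52. They were 36.8 kb, 29.1 kb and 5139 bp from its start and, for the last, in an intron 1544 bp from it. Their Dox+ means were 4.59, 2.91, 3.62 and 4.03 and their Dox- means 2.94, 0.44, 1.25 and 1.51. The first was the only one of the 4 with a peak in a Dox- list (replicate 2, fold 2.13), and the third had the highest fold of the run, 6.78 in Dox+ replicate 3 against 2.24 in replicate 2. At chr11:118034243-118083712, 3 sites within 49.5 kb lay in Dnah17, a dynein gene, with differences of 1.79 to 2.75. Neither run held a lost distal site or a merged OCT4 peak.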

How the data were processed

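ChIP-seq of SMAD3 and OCT4 was analysed in 13 samples grouped by antibody and dox treatment as labelled. The authors aligned trimmed reads to mm10 (GRCm38), removed duplicates and blacklisted regions, and called peaks with MACS2 2.1.0 against input, narrow for OCT4 and broad for SMAD3, per replicate and on merged replicates. Their submitters' processing notes also name Trimmomatic 0.36, Picard 2.3.0, SAMtools 1.3, bedtools 2.25.0, deepTools 2.2.3 and DiffBind 1.16.3. Deposited peak lists give a fold enrichment over input (a ratio) and a −log10 q-value, and the deposited matrices a signed score, the input-subtracted coverage in bins of 10 bp within 2000 bp of OCT4 peaks. The deposited DiffBind tables hold log2 mean concentrations per group for sites that passed a false discovery rate of 0.1 and a log2 fold of 1 in either direction; their fold, p and rate columns were not used. No value per replicate is in them, and no column of per-sample values was left unassigned (0).

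Tested regions were rebuilt by joining overlapping peaks of the 6 SMAD3 lists and keeping those in at least 2. The 2080 listed sites were kept as listed and joined with the rebuilt regions that overlapped none of them, which gave 13217. Overlap meant at least 1 bp. Transcript starts, exons and introns came from GENCODE M21, and sequence from GRCm38, the assembly of mm10. Shares carry exact (Clopper-Pearson) 95% intervals, the limit that a count of 0 allows is 3 counts of the total, and both cover counting error only. Two-sided Fisher's exact tests over sites were adjusted by Benjamini-Hochberg over 30 word comparisons and over 7 other comparisons, with 0.5 added to each count for odds ratios. Comparisons stratified by GC content used Mantel-Haenszel pooled odds ratios and tests instead. Counting, overlap and test steps were checked on simulated data. Python 3.11.15, scipy 1.17.1, statsmodels 0.14.6, pandas 2.3.3 and pysam 0.24.0 were used.

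The sites, gene lists and words were chosen with earlier results of these data known. Sites named in the text were the 10 with the largest difference, the 5 with the highest Dox+ mean, up to 3 per gene list, those next to the rule's limits, runs of at least 3 sites, and those nearest to an OCT4 peak. Sites at some genes of the lists are counted but not reported by name here. Alternatives were window size, stratification by GC content, the distance and OCT4 limits, list support, a minimum difference of 2 and leaving out each replicate.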

Additional observations from a re-analysis of the deposited data

How the results depend on the processing

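Over the alternatives, the 8 odds ratios of single words kept their direction in all 64 values and passed or failed as before in 44. Against lost sites, CEBP ranged from 0.230 to 0.327 and TEAD from 0.431 to 0.623, passing in each of 7 alternatives. Against regions not listed, SOX ranged from 1.53 to 1.83 and passed in 7 of 9. Against these regions 4 words passed, but 0 with windows of 50 bp, 2 with a minimum difference of 2 (TEAD and KLF) and 2 with regions in at least 3 lists (SOX and the GC-rich SMAD site). With windows of 250 bp 4 passed, but AP-1 and ETS took the place of TEAD (0.831) and NFI (0.862). Against lost sites 4 passed, but 2 with windows of 50 bp (TEAD and CEBP). Between centers and flanks 0 passed, but 2 with windows of 250 bp, and 1 (SOX) with starts over 5000 bp away, a limit that left 325 sites. In wide sites the flanks lay inside the site, so a word that did not pass there is not evidence of equal shares in a site and its surroundings.

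The CpG-rich odds ratio against regions not listed was 0.590 with starts over 5000 bp away and no longer passed, and against lost sites it was 2.56 with windows of 250 bp and passed. The intronic odds ratio against regions not listed passed with a minimum difference of 2 (1.31), with regions in at least 3 lists (1.52) and with those in at least 2 Dox+ lists (1.52), and against lost sites it came to 1.00 with a minimum difference of 2. For OCT4 peaks near the sites, the odds ratio against regions not listed no longer passed without sites within 2000 bp of a peak (1.42) or at 50 kb (1.16), nor that against lost sites at 50 kb (1.51) or at 2 kb (3.21). Without 1 OCT4 replicate, that for replicate peaks ranged from 7.79 (without replicate 1) to 12.8. The difference in list shares ranged from 46.0 to 94.5 points without 1 SMAD3 replicate. The causes of these changes were not tested.

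No paired analysis was possible because the tables hold group means, the tests were made over sites, and the shares in the replicate lists come from no test. At pooled coverage below 1, the absence of a peak was not evidence that SMAD3 was absent.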

Other observations

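Gained sites were found on every autosome and the X chromosome, with shares of the distal tested regions free of OCT4 peaks from 9.59% on chromosome 13 to 19.8% on chromosome 19. Chromosome 11 held the most, 64 of 329 such regions (19.5%), and chromosome X 6 of 35. Exonic centers were found in 66 gained sites (11.8%, 95% interval 9.23 to 14.7), 259 regions not listed (9.92%, 8.80 to 11.1) and 27 lost sites (5.16%, 3.43 to 7.42). Among the gained sites, 96 were wider than 2000 bp, with a median Dox+ mean of 4.88 and a median Dox- mean of 2.91, and 141 were up to 600 bp wide, with medians of 2.96 and 0.44.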
